A study of Mus musculus with 12 samples.

Results

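Transforming growth factor-β (TGF-β) ligands, 1 of their receptors and a set of matrix genes that act downstream of them in fibrosis were followed in the tibialis anterior of Smyd1 CKO mice. The set holds 9 genes, chosen by symbol: the ligands Tgfb1, Tgfb2 and Tgfb3, the receptor gene Tgfbr2, the effector genes Ctgf, Postn, Fn1 and Lox, and Pdgfra, a receptor gene that marks interstitial fibroblasts of muscle. All 9 were listed among the 23923 genes of every library, and all 9 passed a filter on low values that left 12695 genes for testing.

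RNA was sequenced from the tibialis anterior, a fast-twitch muscle of the lower leg, of 12 mice aged 6 weeks, with 1 library per mouse. The 6 controls were Myf6 cre/+; Smyd1 flox/+ and the 6 CKOs were Myf6 cre/+; Smyd1 flox/-, all on a mixed C57BL6/J;129S1/SvImJ background and, by the study's methods, with a Rosa26 YFP allele. Smyd1 encodes a lysine methyltransferase of striated muscle, and both groups carried the Cre allele and a floxed Smyd1 allele. Cre was made from the Myf6 locus, which is active in myofibers from about birth, so the floxed allele was targeted in myofibers, while fibroblasts and other interstitial cells of the CKO carried the null allele with an intact floxed one. The wild-type allele of the controls was left by Cre. Abundance is given as FPKM, in which fragments are divided by transcript length and by the size of the library, so that levels of different genes can be set side by side. The number of reads per library is unknown.

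TGF-β is secreted in a latent form that is held in the matrix by latent TGF-β binding proteins and released by proteases, thrombospondins and αv integrins. Free ligand is bound by the receptor that Tgfbr2 encodes, which recruits and phosphorylates a type I receptor, and this receptor phosphorylates SMAD2 and SMAD3 to change transcription. In injured or dystrophic muscle the pathway is known for driving fibro-adipogenic progenitors, the interstitial cells marked by PDGFRα, to produce matrix. Connective tissue growth factor (encoded by Ctgf), periostin (Postn), fibronectin (Fn1) and lysyl oxidase (Lox) are among the products used to follow that response.

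Promoter sequence is shown for the receptor genes and the effector gene whose 6 CKO values lay above those of controls 2 to 6, and for Tgfb2, the ligand with the most motif matches. The windows run from 250 bases before to 50 bases after the start site, on the strand of the gene, and come from RefSeq on GRCm38.p6. RefSeq windows were matched for 5 of the 9 genes. Tgfb3, Ctgf, Fn1 and Lox had no entry in the table used. Capitals mark matches to CAGAC, the core of a SMAD-binding element, TATAAA (the core of the TATA box) or CACGTG (an E-box).
Tgfbr2, chr9:116175314-116175613, minus strand: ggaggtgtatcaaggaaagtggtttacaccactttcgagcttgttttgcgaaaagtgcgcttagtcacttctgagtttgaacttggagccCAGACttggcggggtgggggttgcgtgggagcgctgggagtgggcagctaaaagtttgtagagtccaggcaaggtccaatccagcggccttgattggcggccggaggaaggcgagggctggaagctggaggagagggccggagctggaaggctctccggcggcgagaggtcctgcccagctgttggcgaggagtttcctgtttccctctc
Pdgfra, chr5:75152001-75152300, plus strand: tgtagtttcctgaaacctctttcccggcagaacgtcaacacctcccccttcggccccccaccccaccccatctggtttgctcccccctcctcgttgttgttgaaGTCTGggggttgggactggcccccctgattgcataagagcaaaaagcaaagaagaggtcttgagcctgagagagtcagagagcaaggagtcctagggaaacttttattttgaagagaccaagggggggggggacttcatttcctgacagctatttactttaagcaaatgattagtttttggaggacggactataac
Postn, chr3:54360857-54361156, plus strand: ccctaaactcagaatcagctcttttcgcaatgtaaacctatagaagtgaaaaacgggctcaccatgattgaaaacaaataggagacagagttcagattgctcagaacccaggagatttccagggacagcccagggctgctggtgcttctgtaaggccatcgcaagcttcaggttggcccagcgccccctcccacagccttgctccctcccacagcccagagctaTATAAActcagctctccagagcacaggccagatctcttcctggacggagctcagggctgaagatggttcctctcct
Tgfb2, chr1:186705940-186706239, minus strand: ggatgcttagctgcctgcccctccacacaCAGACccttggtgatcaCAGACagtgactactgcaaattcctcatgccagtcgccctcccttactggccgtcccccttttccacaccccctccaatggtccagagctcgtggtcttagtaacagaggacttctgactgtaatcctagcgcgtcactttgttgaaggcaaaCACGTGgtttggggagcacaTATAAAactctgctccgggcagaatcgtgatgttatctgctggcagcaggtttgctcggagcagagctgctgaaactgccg
Tgfbr2 held CAGAC at -160 relative to the start site, and Pdgfra held it at -146 on the opposite strand, where it reads as GTCTG in the sequence shown. Postn has another RefSeq start further upstream, not printed, whose window held CAGAC at -191, whereas the window shown held only TATAAA, at -26. Tgfb2 held CAGAC at -221 and -204, CACGTG at -51 and TATAAA at -31, and the Tgfb1 window held none of the motifs. CATTCC, the motif of TEAD factors, was searched as well and was not in any of the 6 windows. Both strands were searched, and no motif lay over another. Among all 32851 promoter windows of this length, 49.6% held CAGAC, 14.7% CATTCC, 13.6% TATAAA and 7.15% CACGTG, so that a match to CAGAC is common. These matches are a description of the letters and not of binding.

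Before the values are compared, 1 library has to be set apart. Control 1 had the highest FPKM of the 6 controls for 6 of the 9 genes (44.7% of all genes tested showed this), and the highest of all 12 mice for 3, Fn1, Lox and Pdgfra (20.1% of all genes). It was also the highest control for all 14 fibroblast markers, 9 tendon markers and 7 of 9 tested macrophage markers. The same held for 5 of 8 fast myofiber markers and 5 of 8 smooth muscle and pericyte markers, but for 0 of 8 endothelial and 0 of 6 slow myofiber markers. Its FPKM summed over all genes, 156610, was the highest of the 12 libraries (110124 to 138454 in the others). The summed level of the fibroblast markers, which include Pdgfra, was 1107 FPKM in control 1 against 302.2 to 395.6 FPKM in controls 2 to 6 and 435.6 to 673.5 FPKM in the CKOs. The most abundant of these markers were Col3a1 and Dcn, a collagen chain and a matrix proteoglycan. Comparisons of the 9 genes are therefore given with and without control 1. Those of the other genes are so given for part of the calls and counts that control 1 changes. Control 1 was set apart on values of these same genes and markers. Leaving out the highest control raises an unscaled log2 fold change, so the fits without control 1 are no independent support. The shares over all genes do not correct for this. The ranges of the targeted gene Smyd1 overlapped between the groups: its FPKM was 32.95 to 47.13 in controls and 27.8 to 39.94 in CKOs (log2 fold change -0.13, SE 0.12, limma adjusted P = 0.545). The log2 fold change was -0.06 without control 1 (limma adjusted P = 0.727), -0.32 in all 12 libraries after median-ratio scaling, which divides each library by its typical ratio to an average library (limma adjusted P = 0.0797), and -0.29 with both (limma adjusted P = 0.0793). The values do not show which exons the reads came from, so Smyd1 did not check the labels, and the groups are named by them. The fast myofiber markers, led by Mylpf and Tnnt3, summed to 22360 to 38320 FPKM in controls, highest in control 1, and 24170 to 30490 FPKM in CKOs. Their median log2 fold change was -0.32, where that of all genes was 0.18. Of the 8, 1 had a positive value, Myh4 (0.77), named after its values were seen. At an unadjusted P below 0.05 in limma, 1 was higher and 1 lower (18.1% and 1.76% of all genes). After median-ratio scaling, 1 was higher and 5 lower (6.62% and 7.44% of all genes).

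**Figure D1:**
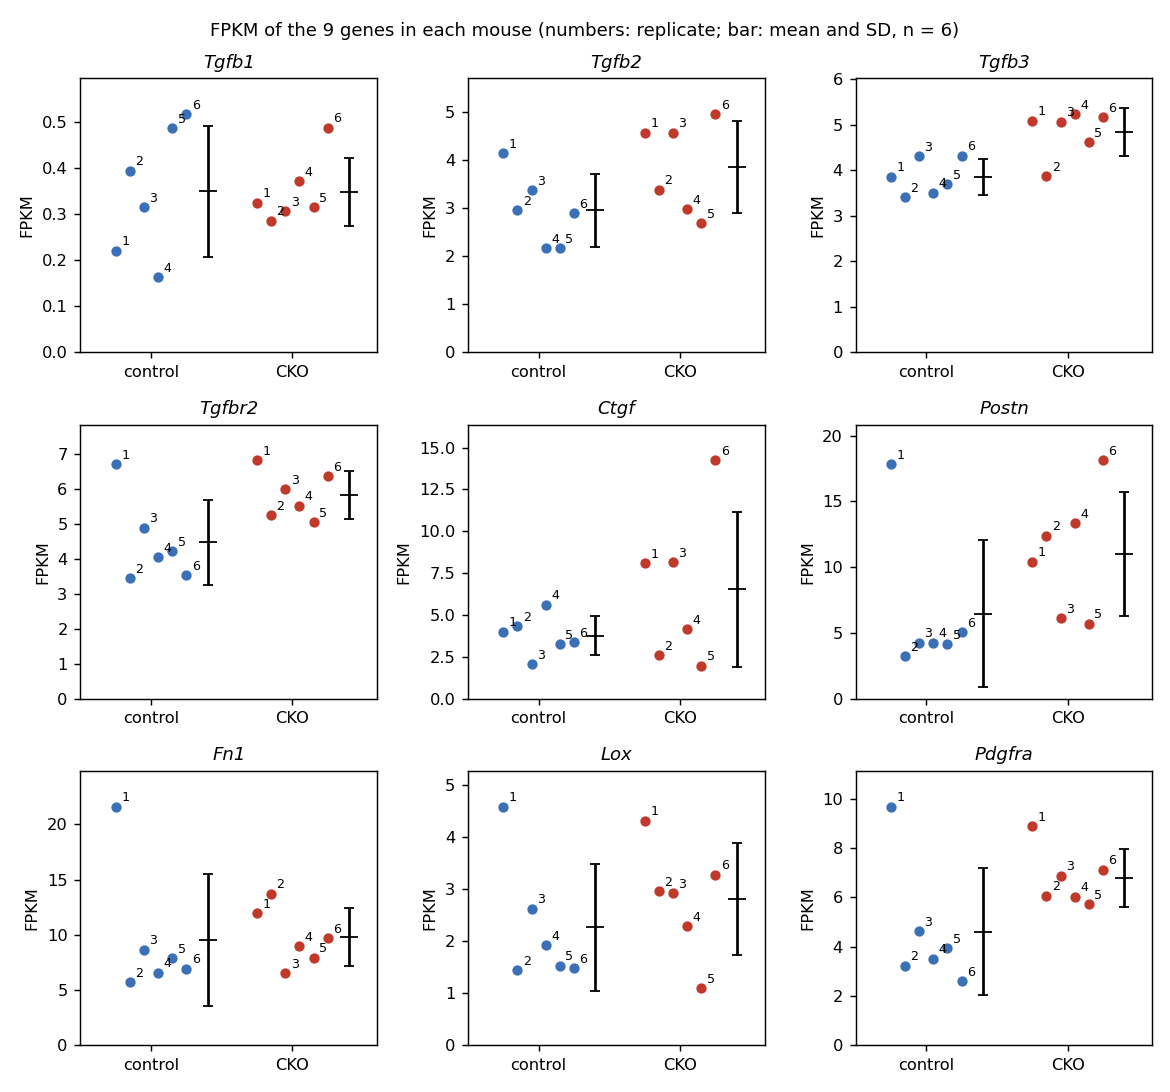
FPKM of the 9 genes in each mouse, 1 panel per gene with its own linear axis that starts at 0, numbered points for the 6 controls and 6 CKOs and bars for the mean and SD. Control 1 was at 17.8 FPKM for Postn and 21.6 FPKM for Fn1, above every other control, and the 6 CKO values of Tgfbr2, Postn and Pdgfra lie above controls 2 to 6.

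Of the 9 genes, 0 were higher or lower in the CKO at an adjusted P below 0.05 with all 12 mice (limma on log2(FPKM + 0.1), Benjamini-Hochberg over the 12695 genes), where 2.02% of all genes were called higher and 0.268% lower. Without adjustment, 4 genes were higher at a P below 0.05, Pdgfra, Postn, Tgfbr2 and Tgfb3, and 0 were lower, against a background of 18.1% higher and 1.76% lower. Their median log2 fold change was 0.37, that of all genes was 0.18, and 77.9% of all genes had a positive value, as did all 9 here. In bulk muscle a change in the number of cells of a type and a change in RNA per cell cannot be told apart.

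Median-ratio scaling brought the median of all genes to 0.01. It left 2 of the 9 genes higher without adjustment, Postn and Pdgfra, and 0 lower, where 6.62% of all genes were higher and 7.44% lower, and 0 higher at the adjusted threshold (background 0.764%). The median of the 9 genes was then 0.19. Without control 1 and without scaling, 3 genes passed the adjusted threshold as higher in the CKO, Pdgfra, Postn and Tgfbr2, where the background was 8.56%, and 6 passed it unadjusted, where the background was 27.2%. With the scaling and the omission of control 1 together, Pdgfra and Postn passed the adjusted threshold (background 1.43%), and 3 genes the unadjusted one (background 8.71%). With all mice and sample weights, in which control 1 counted least, 5 genes passed the adjusted threshold, where the background was 11.0%.

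The 3 ligand genes differed widely in level. Tgfb1 was by far the least abundant of the 9 genes in both groups, with medians of 0.354 FPKM in controls and 0.320 FPKM in CKOs. Its control values ran from 0.163 FPKM in control 4 to 0.516 FPKM in control 6, and its CKO values from 0.286 FPKM in CKO 2 to 0.487 FPKM in CKO 6. The CKO range thus lay inside the control range. The means were 0.349 ± 0.142 FPKM (SD, n = 6) and 0.348 ± 0.0736 FPKM (SD, n = 6), with a log2 fold change of 0.05 (SE 0.23, 95% interval -0.44 to 0.54, limma adjusted P = 0.928), and the sign turned negative after median-ratio scaling (-0.10) and without control 1 (-0.04, limma adjusted P = 0.930).

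Tgfb2, a ligand with roles in muscle and heart development, ran from 2.17 to 4.15 FPKM in controls (median 2.93) and from 2.69 to 4.96 FPKM in CKOs (median 3.98). Control 1 was the highest control, and CKO 1, CKO 3 and CKO 6 lay above every control, while CKO 2, CKO 4 and CKO 5 lay within the control range. Controls averaged 2.96 ± 0.756 FPKM (SD, n = 6) and CKOs averaged 3.86 ± 0.959 FPKM (SD, n = 6), a log2 fold change of 0.37 (SE 0.19, limma adjusted P = 0.281, exact permutation P = 0.0931). Without control 1 the log2 fold change was 0.48 (limma adjusted P = 0.0989, exact permutation P = 0.0476), and with median-ratio scaling of all 12 mice it was 0.19 (95% interval -0.16 to 0.54).

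Tgfb3 was the most even of the genes within a group, with coefficients of variation of 10.2% in controls and 10.8% in CKOs. Its control values ran from 3.41 to 4.31 FPKM (median 3.77), and control 1, at 3.85 FPKM, was in the middle of them. In CKOs the values ran from 3.87 FPKM in CKO 2 to 5.23 FPKM in CKO 4 (median 5.08), so that 5 of 6 CKOs lay above all controls. Controls averaged 3.85 ± 0.391 FPKM (SD, n = 6) and CKOs averaged 4.84 ± 0.524 FPKM (SD, n = 6), a log2 fold change of 0.32 (SE 0.11, limma adjusted P = 0.128). The exact two-sided permutation test on the same scale gave P = 0.00866. Leaving out control 1 left the log2 fold change at 0.32 (limma adjusted P = 0.0799), and median-ratio scaling brought it to 0.14 (limma adjusted P = 0.605). The median of all genes moved with the scaling as well, from 0.18 to 0.01.

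Summed over the 3 ligands, the level was 7.15 FPKM in controls (SD 0.9749, n = 6) and 9.05 FPKM in CKOs (SD 1.32, n = 6). Within a mouse, Tgfb3 exceeded Tgfb2 in 5 of 6 controls and in 6 of 6 CKOs, and the ratio of Tgfb3 to Tgfb2 had medians of 1.38 and 1.13. The exception was control 1, with a ratio of 0.928. Both ligands exceeded Tgfb1 in every mouse, by 4.46-fold to 18.8-fold for Tgfb2 and by 7.60-fold to 21.5-fold for Tgfb3.

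Tgfbr2, the type II receptor gene, ran from 3.46 FPKM in control 2 to 6.72 FPKM in control 1 (median 4.14), and in CKOs from 5.05 to 6.82 FPKM (median 5.76). All 6 CKOs lay above controls 2 to 6, of which the highest was control 3 at 4.90 FPKM, whereas control 1 lay within the CKO range. Controls averaged 4.48 ± 1.22 FPKM (SD, n = 6) and CKOs averaged 5.84 ± 0.683 FPKM (SD, n = 6), a log2 fold change of 0.40 (SE 0.15, limma adjusted P = 0.159, exact permutation P = 0.0325). Without control 1 it was 0.53 (SE 0.12, limma adjusted P = 0.0158). With median-ratio scaling as well, it was 0.30 and did not pass the adjusted threshold (limma adjusted P = 0.102).

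Pdgfra, the gene of the PDGF receptor α chain, ran from 2.60 FPKM in control 6 to 9.70 FPKM in control 1 (median 3.72) and from 5.73 to 8.91 FPKM in CKOs (median 6.48). Control 1 was the highest of all 12 mice, and all 6 CKOs lay above controls 2 to 6. The log2 fold change was 0.67 with all mice (SE 0.24, limma adjusted P = 0.145, exact permutation P = 0.0411) and 0.91 without control 1 (SE 0.15, limma adjusted P = 0.00377). The mean of controls 2 to 6 was 3.58 ± 0.762 FPKM (SD, n = 5), and that of the CKOs was 6.79 ± 1.17 FPKM (SD, n = 6). The call without control 1 held after median-ratio scaling (log2 fold change 0.68, limma adjusted P = 0.0114). Among the PDGF ligand genes and Pdgfrb, the gene of the other receptor chain, 0 of 5 were higher and 1 was lower at an unadjusted P below 0.05, with values of -0.43 for Pdgfa (limma adjusted P = 0.207) and 0.17 for Pdgfrb (limma adjusted P = 0.440).

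**Figure D2:**
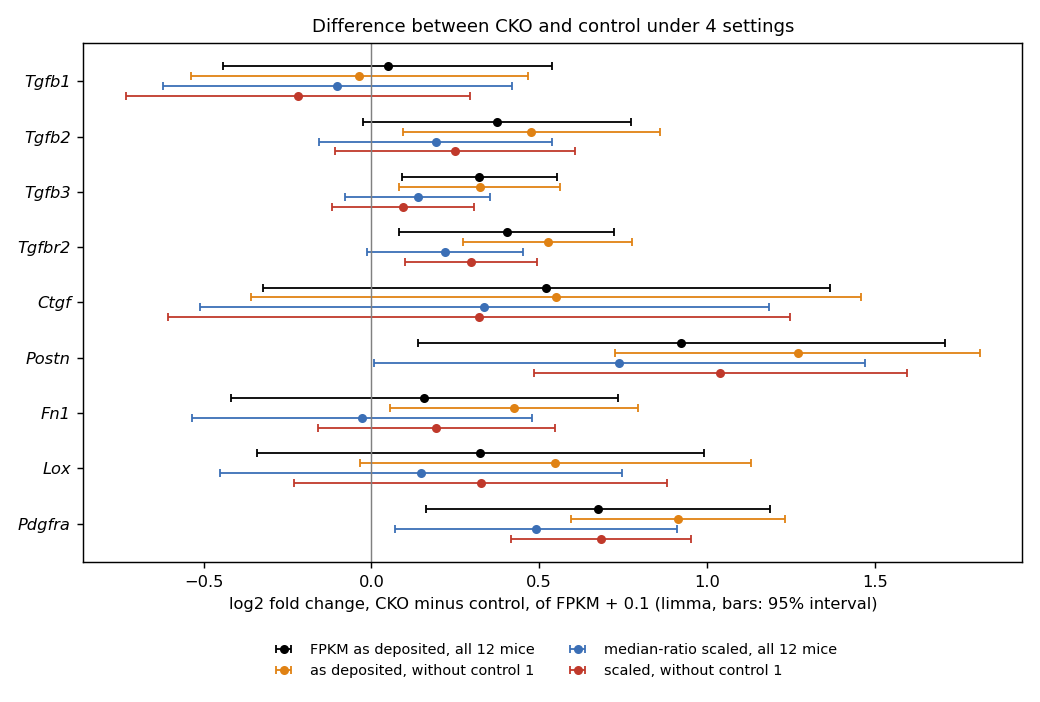
Log2 fold change, CKO minus control, of the 9 genes on the log2(FPKM + 0.1) scale, with 95% intervals, in 4 fits: all 12 mice as deposited, without control 1, after median-ratio scaling, and with both. The intervals of Tgfbr2, Postn and Pdgfra narrow and move to the right without control 1, from 0.67 to 0.91 for Pdgfra, whereas Tgfb1 stays about 0.

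Postn, a matricellular protein of fibroblasts, had the largest fold change of the 9 genes and the most uneven controls. Controls 2 to 6 ran from 3.23 to 5.05 FPKM, control 1 was at 17.8 FPKM, and the CKOs ran from 5.68 FPKM in CKO 5 to 18.1 FPKM in CKO 6 (median 11.4). All 6 CKOs lay above controls 2 to 6, and only CKO 6 lay above control 1. The log2 fold change was 0.92 with all mice (SE 0.37, limma adjusted P = 0.184, exact permutation P = 0.0714) and 1.27 without control 1 (SE 0.25, limma adjusted P = 0.00994). Controls 2 to 6 had a mean of 4.19 ± 0.646 FPKM (SD, n = 5) and the CKOs of 11.0 ± 4.69 FPKM (SD, n = 6), and the call held after median-ratio scaling without control 1 (log2 fold change 1.04, limma adjusted P = 0.0475). Where no scaling was applied, 6.1% of all genes had their 6 CKO values above controls 2 to 6, and 3 of these 9 genes did. Control 1 was the highest control for each of these, Tgfbr2, Postn and Pdgfra. With all 6 controls kept, 0 of the 9 genes had their 6 CKO values above every control, where 2.23% of all genes did.

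Fn1, the gene of fibronectin, was one of the more abundant of the 9 in both groups, but its groups overlapped. Controls 2 to 6 ran from 5.69 to 8.62 FPKM, control 1 was at 21.6 FPKM, and the CKOs ran from 6.53 to 13.7 FPKM (median 9.31). With all mice the means were 9.54 ± 6.00 FPKM (SD, n = 6) and 9.79 ± 2.65 FPKM (SD, n = 6), with a log2 fold change of 0.16 (SE 0.27, 95% interval -0.42 to 0.73, limma adjusted P = 0.769). Without control 1 it was 0.42 (limma adjusted P = 0.124, exact permutation P = 0.0606), and with median-ratio scaling of all mice it was slightly negative (-0.03).

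Lox, which encodes the enzyme that cross-links collagen and elastin, ran from 1.44 FPKM in control 2 to 4.59 FPKM in control 1 (median 1.73). The CKOs ran from 1.09 FPKM in CKO 5, the lowest of all mice, to 4.31 FPKM in CKO 1 (median 2.94), and the ranges overlapped over most of their length. The log2 fold change was 0.32 (SE 0.31, limma adjusted P = 0.575), and 0.55 without control 1 (limma adjusted P = 0.196, exact permutation P = 0.130).

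Ctgf, the gene of connective tissue growth factor, varied most among CKOs. Controls ran from 2.08 FPKM in control 3 to 5.61 FPKM in control 4 (median 3.69), and the CKOs ran from 1.96 FPKM in CKO 5 to 14.2 FPKM in CKO 6 (median 6.12). CKO 1, CKO 3 and CKO 6 lay above all controls, at 8.08, 8.15 and 14.2 FPKM, while the other CKOs lay between 1.96 and 4.16 FPKM. The coefficient of variation was 70.6% among CKOs against 31.5% among controls. The means were 3.77 ± 1.19 FPKM (SD, n = 6) and 6.53 ± 4.61 FPKM (SD, n = 6), with a log2 fold change of 0.52 (SE 0.40, limma adjusted P = 0.467). Leaving out control 1 gave 0.55 (limma adjusted P = 0.404), leaving out CKO 6 gave 0.24, and leaving out CKO 5 gave 0.80 (limma adjusted P = 0.222), so the value rests on single CKOs.

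The CKOs that were high for Ctgf were also the mice with the most slow-fiber RNA. The summed FPKM of the slow myofiber markers, among them the myosin light chain genes Myl2 and Myl3, was 126.3 in CKO 1, 75.0 in CKO 3 and 271.1 in CKO 6, against 20.2 to 27.2 in the other CKOs and 14.1 to 46.0 in controls. Over the groups, 5 of the 6 slow markers were higher at an unadjusted P below 0.05, with 0 past the adjusted threshold in limma. The exception was Myl3, at a log2 fold change of -0.52 (limma adjusted P = 0.330). It ran from 9.96 to 26.6 FPKM in controls, a large part of their sums. Only the other 5 markers had CKO 1, CKO 3 and CKO 6 all above CKO 2, CKO 4 and CKO 5. In controls the extremes matched as well: control 4 had the highest slow-fiber sum and the highest Ctgf, and control 3 the lowest of both. Of the 9 genes, 4 had CKO 1, CKO 3 and CKO 6 all above CKO 2, CKO 4 and CKO 5, namely Ctgf, Tgfb2, Tgfbr2 and Pdgfra, where 10.4% of all genes showed this. The part of the slow-fiber content in these values was not tested.

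**Figure D3:**
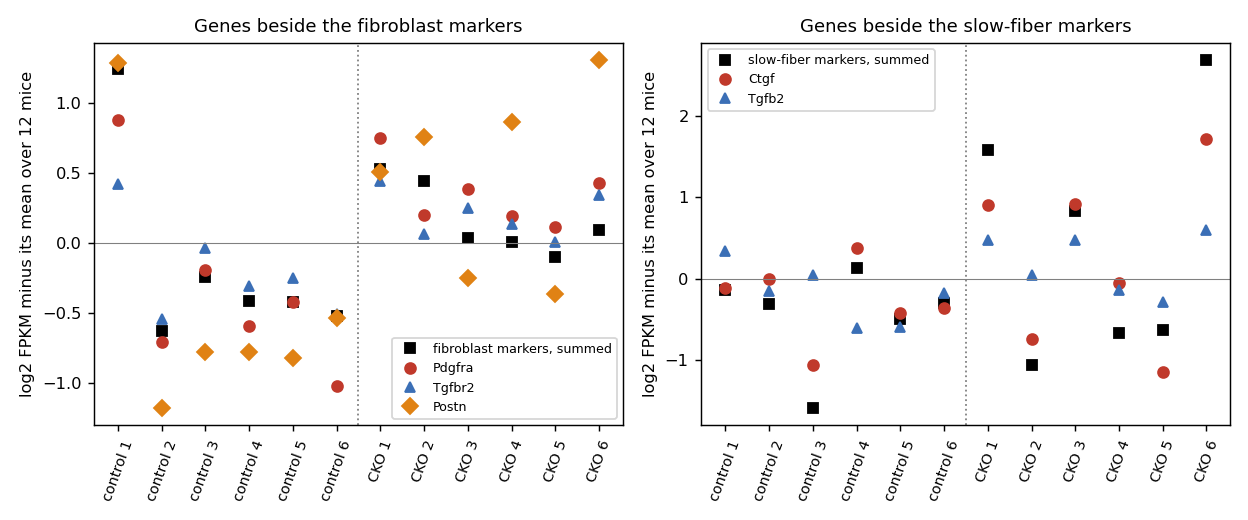
Log2 FPKM in each mouse minus the mean over the 12 mice, for the summed fibroblast markers (squares) with Pdgfra, Tgfbr2 and Postn at the left, and for the summed slow myofiber markers (squares) with Ctgf and Tgfb2 at the right. Control 1, with 1107 FPKM of fibroblast markers, stands above controls 2 to 6 in the left panel, and CKO 1, CKO 3 and CKO 6 stand above the other CKOs in the right panel.

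Fibroblast markers were measured beside the receptor and effector genes. With all mice, 3 of the 14 fibroblast markers, Pdgfra among them, were higher and 0 lower at an unadjusted P below 0.05 (0 at the adjusted threshold). Of all genes, 18.1% were higher in that fit. The median log2 fold change of the markers was 0.43. Without control 1, 13 were higher and 9 of these passed the adjusted threshold, with a median of 0.77, in a fit where 27.2% of all genes were higher unadjusted and 8.56% adjusted. Control 1 was the highest control for all 14, so leaving it out raised each of these values, and those backgrounds do not correct for this. After median-ratio scaling the count was 1 with all mice (background 6.62%), and 9 without control 1, of which 4 passed the adjusted threshold, with a median of 0.54 (backgrounds 8.71% and 1.43%). The unscaled fit without control 1 gave 0.91 for Pdgfra, 1.27 for Postn and 0.42 for Fn1. The part of fibroblast content in the values of these genes was not tested. Tendon markers did not move this way, with 0 of 9 higher and 3 lower at an unadjusted P below 0.05 with all mice (background 1.76% lower). The 3 were Mkx, Kera and Cilp2, named after their values were seen. The sum of the tendon markers was 63.5 FPKM in control 1, 19.6 to 34.6 FPKM in the other controls and 17.4 to 36.7 FPKM in CKOs. Macrophage and leukocyte markers had 0 of 9 tested higher or lower at an unadjusted P below 0.05 with all mice. Without control 1, 6 were higher, of which 1 passed the adjusted threshold (backgrounds 27.2% and 8.56%). Their sums were 44.2 FPKM in control 1, 12.2 to 20.2 FPKM in the other controls and 16.2 to 25.9 FPKM in CKOs. Endothelial markers had 0 of 8 called in either direction with all mice, at sums of 34.8 to 48.6 FPKM in controls and 34.2 to 56.0 FPKM in CKOs.

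Ordered by median level, the controls ran from Tgfb1 through Lox, Tgfb2, Ctgf, Pdgfra, Tgfb3, Tgfbr2 and Postn to Fn1, at 0.354 to 7.39 FPKM. In CKOs the order was Tgfb1, Lox, Tgfb2, Tgfb3, Tgfbr2, Ctgf, Pdgfra, Fn1 and Postn, at 0.320 to 11.4 FPKM. Only Tgfb1 and Lox, in both groups, were neighbors whose ranges did not overlap. Compared within a mouse, Fn1 exceeded Postn in 6 of 6 controls. In 6 of 6 CKOs, Tgfb2 exceeded Lox, Tgfb3 exceeded Tgfb2 and Tgfbr2 exceeded Tgfb3. For the remaining neighbors the next gene was higher in 2 to 5 of 6 mice, so their order is not fixed by these mice. By the medians alone, Postn went from below Fn1 in controls to above it in CKOs (4.26 and 7.39 FPKM against 11.4 and 9.31 FPKM). Within a mouse, Postn exceeded Fn1 in only 2 of the CKOs and lay below it in the others.

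The genes closest in pattern to each of the 9 were sought among 7961 genes with a mean of at least 1 FPKM, by Pearson's r of log2(FPKM + 0.1) over the 12 mice. The closest gene was Smoc2, a secreted matrix protein gene, for Pdgfra (r = 0.99), Sparc, a matricellular protein gene, for Fn1 (r = 0.98), and Colec12, a scavenger receptor gene, for Postn (r = 0.96). For Lox it was Pofut2 (r = 0.97), for Tgfbr2 Rpl22 (r = 0.98), for Tgfb3 Pi4ka (r = 0.96) and for Tgfb2 Vaultrc5 (r = 0.96). Ctgf was closest to Myl2 (r = 0.92), the ventricular and slow skeletal myosin light chain gene named above. Tgfb1 had no close partner, with 1700109H08Rik at r = 0.77. Between the 9 genes themselves, r was highest for Tgfbr2 with Pdgfra (0.98), while Tgfb1 lay between -0.30 and 0.29 with each of the others. Both values of a pair come from the same library in each mouse, and control 1 enters each r, so these values describe likeness only.

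The other genes of the pathway were read from lists by role. Genes that store and activate latent TGF-β had the most calls, with 9 of 18 tested higher and 1 lower at an unadjusted P below 0.05, and 4 higher at the adjusted threshold. Of all genes, 18.1% were higher and 1.76% lower unadjusted, and 2.02% were higher adjusted, which holds as background for the counts with all mice in each list that follows. Without control 1, 8 storage and activation genes were higher and 1 lower at the adjusted threshold. Of all genes, 27.2% were then higher unadjusted and 8.56% adjusted, which holds for each later unscaled count without control 1. The 4 called with all mice were integrin αv (Itgav), integrin β1 (Itgb1), integrin β6 (Itgb6) and the latent TGF-β binding protein Ltbp1, and all 6 CKO values lay above all 6 control values for each of them (2.23% of all genes). The call and this separation come from the same 12 values, so the separation is no further support. Itgav ran from 4.21 to 6.96 FPKM in controls and from 8.42 to 11.5 FPKM in CKOs, with a log2 fold change of 0.86 (SE 0.12, limma adjusted P = 0.00266). Ltbp1 ran from 1.19 to 2.48 FPKM in controls and from 2.75 to 4.99 FPKM in CKOs, with a log2 fold change of 1.01 (SE 0.21, limma adjusted P = 0.0216). Itgb6 rose from 6.09 ± 0.518 FPKM (SD, n = 6) to 10.1 ± 1.93 FPKM (SD, n = 6), and Itgb1 from 37.1 ± 7.87 FPKM (SD, n = 6) to 60.0 ± 8.46 FPKM (SD, n = 6). For Itgb1 the lowest CKO, at 51.42 FPKM, and control 1, at 51.41 FPKM, were almost equal. All 4 genes also passed the adjusted threshold after median-ratio scaling, at limma adjusted P of 0.00201 for Itgav, 0.0118 for Itgb1, 0.0480 for Itgb6 and 0.0375 for Ltbp1. Ltbp1 missed it when control 2, control 5, control 6, CKO 1 or CKO 6 was left out, at log2 fold changes of 0.91 to 0.99 and limma adjusted P of 0.0533 to 0.0615. Integrins αv with β6 form a receptor that binds the latent complex and frees the ligand.

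Receptors and co-receptors other than Tgfbr2 had 2 of 7 tested genes higher at an unadjusted P below 0.05 and 0 lower, with log2 fold changes of 0.59 for Tgfbr3 (limma adjusted P = 0.0875), a co-receptor gene, and 0.33 for Tgfbr1 (limma adjusted P = 0.207), the type I receptor. Tgfbr3 passed the adjusted threshold without control 1 (log2 fold change 0.76, limma adjusted P = 0.00265), also after median-ratio scaling (0.53, limma adjusted P = 0.0194), and its 6 CKO values lay above controls 2 to 6. The SMAD proteins and their regulators had 3 of 17 higher and 1 lower, a median of 0.04, and Smad2 was at 0.39 (limma adjusted P = 0.116). After median-ratio scaling 0 of these 17 were higher and 3 were lower at an unadjusted P below 0.05 (background 6.62% and 7.44%). Known TGF-β target genes were called in both directions, 3 of 23 higher and 3 lower at an unadjusted P below 0.05, and the 1 that passed the adjusted threshold was lower. Without control 1, 7 of 22 were higher and 3 lower unadjusted, and 5 higher and 2 lower at the adjusted threshold. In that fit 27.2% of all genes were higher unadjusted and 8.56% at the adjusted threshold. Of 12560 genes, 225 were lower unadjusted and 69 adjusted. With median-ratio scaling as well, 1 of the target genes was higher and 2 were lower at the adjusted threshold (1.43% of all genes were higher). The gene called with all mice was Klf10, a TGF-β-inducible early gene, which ran from 4.59 to 7.81 FPKM in controls and from 2.37 to 4.80 FPKM in CKOs (log2 fold change -0.79, SE 0.18, limma adjusted P = 0.0386) and kept its direction and its call after median-ratio scaling (limma adjusted P = 0.0141). It missed the threshold when control 2, 4, 5 or 6 or CKO 1, 2 or 6 was left out, at log2 fold changes of -0.85 to -0.67 and limma adjusted P of 0.0507 to 0.0918. The other lower genes were Junb (-1.11) and Bhlhe40 (-0.43), which did not pass the adjusted threshold with all mice and are named after their values were seen. Junb passed it without control 1 (-1.39, limma adjusted P = 0.0144). Smad7, the feedback inhibitor, had a log2 fold change of 0.01 (limma adjusted P = 0.992).

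Binders and antagonists of TGF-β in the matrix had 5 of 13 higher and 0 lower at an unadjusted P below 0.05, with Bgn, a proteoglycan gene, at 0.69 (limma adjusted P = 0.145) and Htra3, a secreted protease gene, at 0.57 (limma adjusted P = 0.101). Control 1 was the highest control for all 13. Without control 1 the count was 9, and 6 passed the adjusted threshold, Bgn (limma adjusted P = 0.0073) and Htra3 (limma adjusted P = 0.00545) among them. The backgrounds of that fit were 27.2% and 8.56%. Relatives of Ctgf and Postn, the CCN family and other matricellular genes, had 2 of 12 higher and 1 lower, with values of 0.72 for Tgfbi (limma adjusted P = 0.0830) and -0.59 for Thbs1 (limma adjusted P = 0.116). Without control 1, 6 of the 12 were higher and 1 lower, with 2 higher and 1 lower at the adjusted threshold, and Tgfbi (0.92, limma adjusted P = 0.00245) and Thbs1 (-0.68, limma adjusted P = 0.0370) both passed it. Lox relatives and other collagen cross-linking genes had 3 of 16 higher and 0 lower, and Tgm2, a transglutaminase gene, came closest to the adjusted threshold at 0.53 (limma adjusted P = 0.0579). Without control 1, 10 of 15 were higher and 4 passed the adjusted threshold, including Tgm2 (0.59, limma adjusted P = 0.0156). With median-ratio scaling as well 4 were higher and 0 passed it in limma (backgrounds 8.71% and 1.43%). Fibronectin receptors and assembly genes had 3 of 13 higher and 0 lower, of which 2 passed the adjusted threshold, both of them integrin genes already named, Itgav and Itgb1. Without control 1, 5 were higher and 4 passed the adjusted threshold (backgrounds 27.2% and 8.56%).

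**Figure D4:**
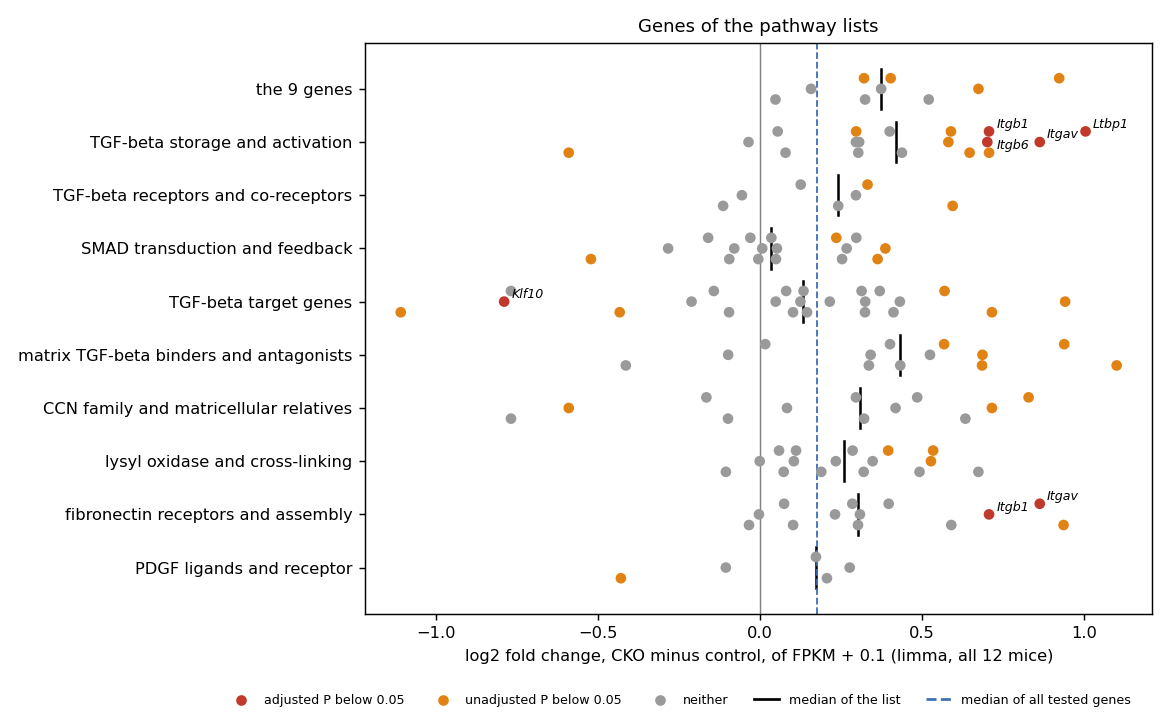
Log2 fold change, CKO minus control, with all 12 mice as deposited, of each tested gene in the pathway lists, 1 row per list, with red points for genes past an adjusted P of 0.05, orange points for genes past it only unadjusted, a bar at the median of each list and a dashed line at the median of all genes, 0.18. The height of a point within its row carries no value. Ltbp1 and 3 integrin genes in the storage and activation row lie between 0.70 and 1.01, and Klf10 in the target row lies at -0.79.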

How the data were processed

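The authors depleted ribosomal RNA from total RNA (ScriptSeq Complete Gold), aligned reads to mm9 with bowtie2 and TopHat2 2.0.10, allowed at most 2 mismatches and discarded reads with several positions. The deposited values are FPKM per gene symbol, computed by the authors with Cufflinks 2.1.1. The annotation and any use of strand in counting are not given in the sources used here. In GENCODE M21, 6 of the 9 genes (Tgfb2, Tgfb3, Ctgf, Fn1, Lox and Pdgfra) have exons of another gene on the opposite strand over theirs. The authors' own test used DESeq on counts, which were not used here.

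From the 23950 rows of each of the 12 files, 27 whose symbol had turned into a date were dropped. Groups were compared on log2(FPKM + 0.1) by limma (3.58.1, run in R 4.3.3) with its intensity trend and without a block. Such a fold change understates the change of low genes. The 12695 genes that reached 0.1 FPKM in 6 or more of the 12 samples were tested, and P-values were adjusted by Benjamini-Hochberg. Exact two-sided permutation tests over 924 assignments were run per gene, with 0.00216 as the smallest P they allow (0.00433 without control 1). The code was tested on simulated data. Relative depth, taken from the spacing of values under 0.15 FPKM, was 0.984 to 1.77 relative to control 1 and did not differ detectably between the groups (exact permutation P = 0.526).

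The 9 genes and all lists were chosen with earlier results of these data known, so they are no independent support. The text names every one of the 9 genes, Smyd1, from each pathway list the genes past the adjusted threshold and otherwise the 2 with the smallest P, the 2 most abundant genes of a cell type list, and the closest gene in pattern among genes with a mean of at least 1 FPKM. Smad7, Retn, Cspg4, Plin1, Lep and the genes said to be named after their values were seen fall outside this rule and were chosen after their values were seen. Some genes that meet the rule are not reported here. Alternatives were pseudocounts of 1 and 0.01, median-ratio scaling, quantile normalization, no filter or one at 1 FPKM, the replicate number as a block, no trend, sample weights and each sample left out in turn. Positions come only from RefSeq promoter windows (GRCm38.p6), since the files carry none.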

Additional observations from a re-analysis of the deposited data

Results flagged for a closer look

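Control 1 stood far from the other controls for 3 of the 9 genes. The gap between control 1 and the next highest control, divided by the range of the 6 controls, was 0.876 for Postn, 0.816 for Fn1 and 0.714 for Pdgfra, above the 95% critical value of Dixon's test for 6 samples. For these genes control 1 was 4.19, 3.12 and 2.76 times the median of controls 2 to 6. Chance flags about 5% of groups, and 18 groups (9 genes in controls and in CKOs) were examined. Lox, at 3.002 times that median, did not reach the critical value.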

How the results depend on the processing

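With all 12 mice as deposited, 0 of the 9 genes passed an adjusted P of 0.05 in limma. This count was 5 with sample weights (background 11.0%), with Tgfb2 and Tgfb3 added to Tgfbr2, Postn and Pdgfra, and 2 with median-ratio scaling and control 1 left out. Leaving out each mouse gave 0 to 3, with 3 only without control 1. At an unadjusted P below 0.05 the count was 4, fell to 2 with median-ratio scaling, and was 3 to 6 when each mouse was left out. Over all genes, 1724 to 3416 were higher unadjusted when each mouse was left out. Postn lost its unadjusted call without control 2 or CKO 6, and in the exact permutation test (P = 0.0714). None of the 9 genes was called lower under any of these settings. Fold changes turned negative for Fn1 with median-ratio scaling (-0.028), for Pdgfrb with it (-0.0111) and with control 1 also left out (-0.0094), and for Tgfb1, an uncalled gene, with median-ratio scaling (-0.10), quantile normalization (-0.17), and scaling without control 1 (-0.22). Leaving out each mouse gave -0.0936 to 0.152 for Tgfb1. Tgfb1 did not pass the filter at 1 FPKM and has no value there. The causes were not tested. When the replicate number was a block, counts were 0 adjusted and 5 unadjusted, Tgfb2 being added. In that fit 272 of the 12695 genes were higher adjusted and 2442 unadjusted. Samples with the same number had correlations of their deviations of -0.086 to 0.164, so the numbers were not taken to pair the mice. Over all genes, the adjusted counts of 257 higher and 34 lower became 1075 and 69 without control 1, 88 to 319 and 18 to 57 without any 1 of the other mice (lowest without CKO 1), 97 and 90 with median-ratio scaling, 101 and 68 with quantile normalization, 180 and 182 with scaling and control 1 left out, 170 and 23 without a filter and 1400 and 115 with sample weights. Among the 4 activation genes, Itgb6 missed the threshold with scaling and control 1 left out (limma adjusted P = 0.0504). Klf10 missed it without a filter (limma adjusted P = 0.0602) and without the trend (limma adjusted P = 0.0635). Counts of reads are unknown, so the precision of low values such as those of Tgfb1 cannot be given.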

Other observations

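Among cell types that the report does not describe, satellite cell markers, led by Cdh15 and Myf5, summed to 1.44 to 2.09 FPKM in controls and 2.17 to 3.29 FPKM in CKOs. With all mice, 3 of 4 tested were higher at an unadjusted P below 0.05 with 0 past the adjusted threshold (limma). Without control 1, 2 were higher and 1, Myf5, passed the adjusted threshold (limma adjusted P = 0.0425), where the backgrounds were 27.2% and 8.56%. Adipocyte markers, led by Cfd and Adipoq, summed to 1 to 3.03 FPKM in controls and 2.62 to 7.31 FPKM in CKOs. With all mice, 3 of 4 tested were higher, of which 1, Retn, passed the adjusted threshold (limma adjusted P = 0.0322). Without control 1, 3 were higher and 2 passed it (backgrounds 27.2% and 8.56%). Plin1, Lep and Retn were listed at 0 in at least 1 mouse. Smooth muscle and pericyte markers, led by Des and Rgs5, had 2 of 8 higher with all mice, Cspg4 and Des. Without control 1, 1 was higher, Des, which then passed the adjusted threshold (limma adjusted P = 0.0281). Des is also expressed in myofibers, so its call cannot be assigned to these cells. Rgs5 was at 0.09 with all mice (limma adjusted P = 0.764). Erythrocyte markers, led by Hba-a1 and Hbb-b1, had 0 of 4 tested called in either direction.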
